A study of Mus musculus with 4 samples.

Results

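The Notch receptors Notch1, Notch2 and Notch3, the ligands Dll1, Dll4, Jag1 and Jag2, and the target genes Hes1, Hey1 and Heyl were examined in SSC culture, primary culture of mouse undifferentiated spermatogonia. These 10 genes were chosen by symbol from the 55421 genes of the deposited table of raw counts, and each symbol occurred once. The 4 libraries came from cultures of the CD1 background, with 2 libraries in complete SSC medium (Veh) and 2 after NRRA, a nutrient restriction medium to which retinoic acid (RA) had been added. The nutrient restriction medium consisted mostly of a salt solution without amino acids. The labels name N2, bFGF and GDNF as supplements of the culture for both groups, and the complete medium that carries them made up only a small part of the nutrient restriction medium. The labels give no genotype other than the CD1 strain. The study established such cultures from testes of neonatal pups on feeder layers of irradiated mouse embryonic fibroblasts, so that each library is bulk RNA of germ cells with a share of feeder RNA. The study describes the replicates of its sequencing experiments in general as biologically independent, while the labels of these libraries do not name separate cultures, and the p-values below measure the spread between these libraries.

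Notch is a receptor at the cell surface that is activated by a ligand, of the Delta-like (Dll) or Jagged (Jag) family, on a neighbouring cell. Binding leads to cleavage of the receptor by ADAM proteases and then by the gamma-secretase complex, and the released intracellular part joins the DNA-binding protein RBPJ and a Mastermind-like (MAML) co-activator to turn on targets, among them the transcriptional repressors of the HES and HEY families. In the testis, JAG1 presented by germ cells is known to activate Notch in Sertoli cells, where HES and HEY repressors reduce Gdnf and Cyp26b1, which encode a self-renewal factor of spermatogonia and an enzyme that degrades RA.

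The libraries held between 28022265 and 31604769 counts. Libraries of the same group differed by more than sampling noise, with a chi-square of 1.99 to 2.45 per degree of freedom over genes. Such a value separates them from repeat sequencing of a single library, but cannot tell separate cultures from separate preparations of the same RNA. The spread was small, with a common coefficient of variation beyond counting noise of 2.61%. Germ cell marker genes were present in every library, and all 12 of the list passed the filter on low counts, whereas Sertoli markers were mixed, with a count of 0 for Fshr and Cst12 in all 4 libraries and mean levels of 28.2 CPM for Sox9 and 7.20 CPM for Wt1 in Veh. Stra8, a direct target of RA, was at 9.62 and 10.1 CPM in Veh, where CPM is the number of counts per 1000000 counts of the scaled library, and rose to 1864 and 1853 CPM in NRRA.

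RefSeq promoter windows, reaching from 250 bases before to 50 bases after a transcription start, were found for 7 of the 10 genes (8 windows, of which Dll1 had 2) and not for Hes1, Hey1 and Heyl. They were searched on both strands for the RBPJ core TGGGAA, for CACGCG, a sequence bound by HES and HEY repressors, and for the RA receptor half-site AGGTCA. The motifs do not overlap each other in these windows. The RBPJ core was in 0 of the 8 windows, against 25.6% of 32851 mouse promoter windows of this length. CACGCG was in 5 of the 8 windows, against 9.3% of all windows, and belonged to Notch2, Jag1, Jag2, Dll4 and one of the windows of Dll1. The 8 windows held between 55.7% and 86.0% G and C bases, and the shares of all windows were not matched for base composition. The half-site was in 1 window, of Dll1, against 16.3% of all windows. Such a match is a description of letters and not evidence of a bound site. The stretches of these windows that precede the RefSeq start and hold no annotated exon of the gene are shown in GRCm38.p6, 5′ to 3′ on the strand of the gene, for 4 genes called in the comparison below, Notch1, Notch2 and Jag1 as lower and Dll4 as higher, the last from few counts and not in all settings. Capitals mark CACGCG on either strand. Notch1, with the largest change of the 10 genes, had none. Its stretch lies inside the annotated span of the gene, which reaches further upstream, whereas the other stretches end at the edge of theirs.
Notch1, chr2:26503825-26504072, minus strand: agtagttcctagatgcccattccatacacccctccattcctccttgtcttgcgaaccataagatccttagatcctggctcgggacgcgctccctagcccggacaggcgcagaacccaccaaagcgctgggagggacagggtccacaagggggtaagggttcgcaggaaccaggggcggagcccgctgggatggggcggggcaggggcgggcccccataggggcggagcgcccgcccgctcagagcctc
Notch2, chr3:98013288-98013526, plus strand: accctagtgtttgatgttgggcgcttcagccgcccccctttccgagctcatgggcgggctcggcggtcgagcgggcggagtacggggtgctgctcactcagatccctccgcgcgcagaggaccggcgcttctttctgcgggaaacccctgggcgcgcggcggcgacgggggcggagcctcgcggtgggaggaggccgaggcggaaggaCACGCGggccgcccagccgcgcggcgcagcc
Jag1, chr2:137116645-137116770, minus strand: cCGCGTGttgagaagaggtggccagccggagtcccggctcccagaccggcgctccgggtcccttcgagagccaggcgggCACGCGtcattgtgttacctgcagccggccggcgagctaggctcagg
Dll4, chr2:119325534-119325783, plus strand: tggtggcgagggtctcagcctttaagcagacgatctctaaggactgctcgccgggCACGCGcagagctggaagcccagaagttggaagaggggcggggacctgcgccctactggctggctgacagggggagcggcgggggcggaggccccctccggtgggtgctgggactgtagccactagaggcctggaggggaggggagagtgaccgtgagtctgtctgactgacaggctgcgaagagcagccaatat

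NRRA was compared with Veh to ask how the transcripts of these genes differed between the treated and the untreated cultures. All 10 genes passed the filter on low counts. Jag2 and Dll4 were higher in NRRA, Notch1, Notch2, Jag1 and Hes1 were lower, and Notch3, Dll1, Hey1 and Heyl did not pass the test (quasi-likelihood test in edgeR, with p adjusted over all genes tested by Benjamini-Hochberg and a threshold of 0.05). The 6 genes called make up 60% of the list, near the 56.4% called over the 20232 genes tested. By direction, 2 of 10 were higher, against 27.9% of all genes, and 4 of 10 were lower, against 28.4%. A change of at least 2-fold was called for 3 genes, Notch1, Jag2 and Dll4, against 13.3% of all genes. The libraries of the groups did not overlap in CPM for 9 of the 10 genes, against 76.7% of all genes. The median log2 fold change (NRRA over Veh) was -0.15 over the 10 genes and 0.00029 over all genes tested.

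**Figure D1:**
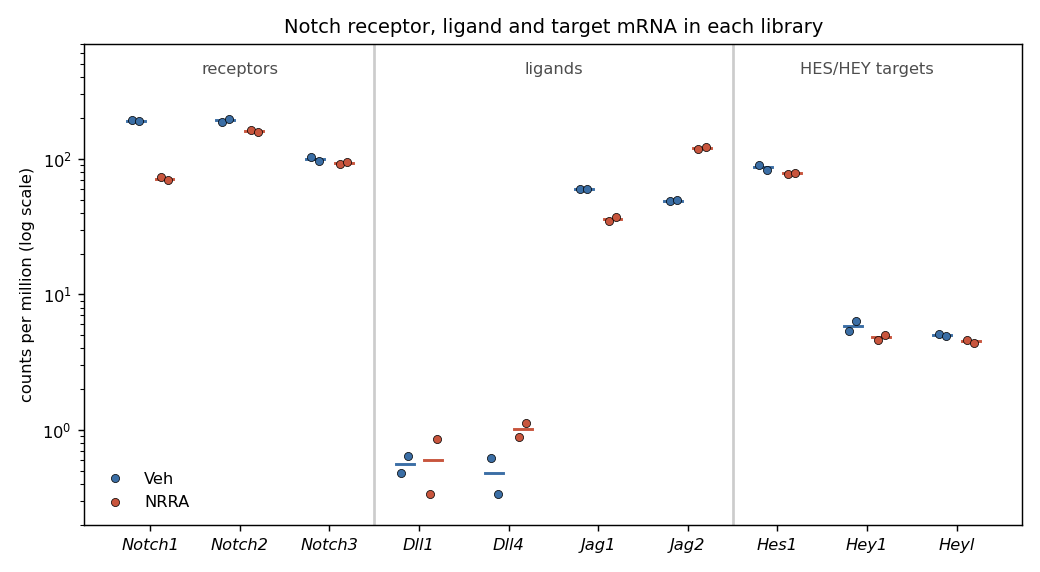
CPM (log scale) of each gene in the 2 Veh and 2 NRRA libraries. Points are libraries and bars are group means. Notch1 and Jag1 sit lower and Jag2 higher in both NRRA libraries, and the libraries of Dll1 overlap.

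Among the receptors, Notch1 showed the largest difference. The Veh libraries held 191.9 and 188.1 CPM, and the NRRA libraries 72.6 and 69.2 CPM. The level in both NRRA libraries was far below that in both Veh libraries, and the libraries of a group lay close together. Veh averaged 190.04 CPM ± 2.69 and NRRA 70.9 CPM ± 2.42 (SD, n = 2 each), so that Veh was 2.68 times as high (log2 fold change -1.42, SE 0.037, adjusted p = 2.04e-21 in the edgeR test). Of all genes tested, 8.11% had a log2 fold change at least as large in absolute size. Notch1 (ENSMUSG00000026923) lies at chr2:26457903-26516663 on the minus strand in GRCm38, and 9.76% of its exonic bases overlap the opposite-strand genes 0610009E02Rik and Gm13568. The strand setting of the counting was not given, and reads of such overlaps cannot be told apart. In the same comparison 0610009E02Rik had a log2 fold change of -1.44 (adjusted p = 2.43e-11 in the edgeR test). The part of the overlap in either change was not tested.

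The tested genes with the pattern across the 4 libraries most like that of Notch1, by the Euclidean distance of their centred log2 CPM, were B430010I23Rik (0.0244), Epha1 (0.0264) and Samhd1 (0.0363). Epha1 encodes an ephrin receptor and Samhd1 a dNTP-degrading enzyme. Their log2 fold changes lay between -1.45 and -1.43. The measure rests on 4 libraries and is a description.

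Notch2 was at 186.9 and 195.4 CPM in Veh and at 163.2 and 158.3 CPM in NRRA. Both NRRA libraries were below both Veh libraries, by a margin far smaller than for Notch1. The log2 fold change was -0.25 (SE 0.033, adjusted p = 2.72e-07 in the edgeR test). Notch2 (ENSMUSG00000027878) lies at chr3:98013527-98150361 on the plus strand, and 5.02% of its exonic bases are shared with Gm42820 on the same strand. Notch3, a receptor best known from the smooth muscle of vessels, was at 102.2 and 96.3 CPM in Veh and at 91.2 and 94.7 CPM in NRRA. The groups did not overlap, but the highest NRRA library came close to the lowest Veh library. Its log2 fold change of -0.09, with an unadjusted 95% interval from -0.18 to -0.0097, did not pass the test (adjusted p = 0.0532, edgeR). Over the alternative settings the log2 fold change of Notch3 ran from -0.14, without Veh replicate 2, to -0.0039, with scaling by library totals alone. With that scaling the adjusted p was 0.945 (edgeR). Without Veh replicate 1 the log2 fold change was -0.05. The call was gained with a filter of at least 1 CPM in 2 libraries (adjusted p = 0.0438, edgeR) and with the replicate number as a block (0.042, edgeR). Notch3 (ENSMUSG00000038146) lies at chr17:32120820-32166852 on the minus strand, with 6.03% of exonic bases overlapping Gm17276 on the opposite strand.

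The ligands Jag1 and Jag2 moved in opposite directions. Jag1 was at 59.7 and 60.3 CPM in Veh and at 34.6 and 37.2 CPM in NRRA. Both NRRA libraries were lower than both Veh libraries, and the mean was 1.67 times as high in Veh (log2 fold change -0.74, SE 0.054, adjusted p = 7.06e-12 in the edgeR test). Jag2 was at 48.4 and 49.9 CPM in Veh and at 118.7 and 121.3 CPM in NRRA. Both NRRA libraries were above both Veh libraries, and the mean was 2.44 times as high in NRRA (log2 fold change 1.29, SE 0.042, adjusted p = 3.69e-19 in the edgeR test). Of all genes tested, 9.62% had an absolute log2 fold change at least as large as that of Jag2 and 21.9% one at least as large as that of Jag1. Jag1 (ENSMUSG00000027276, chr2:137081456-137116644, minus strand) and Jag2 (ENSMUSG00000002799, chr12:112907819-112929776, minus strand) share no exonic bases with another gene.

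The Delta-like ligands were near the limit of detection, where 3 counts correspond to between 0.0921 and 0.111 CPM. Dll4 had 17 and 10 counts in Veh and 29 and 34 counts in NRRA. The counts of both NRRA libraries were above those of both Veh libraries, though few in all. Veh averaged 0.481 CPM ± 0.206 and NRRA 1.01 CPM ± 0.169 (SD, n = 2 each), with a log2 fold change of 1.07 (SE 0.42, adjusted p = 0.031 in the edgeR test). This call did not hold with DESeq2 (adjusted p = 0.209), nor in edgeR without Veh replicate 2 (log2 fold change 0.68, adjusted p = 0.277) or without NRRA replicate 2 (0.89, adjusted p = 0.184). Over all alternatives that tested Dll4 the adjusted p lay between 0.0141 and 0.277. Dll4 (ENSMUSG00000027314) lies at chr2:119325784-119335962 on the plus strand, with 5.56% of exonic bases overlapping Gm14207 on the opposite strand.

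Dll1 had 13 and 19 counts in Veh and 11 and 26 counts in NRRA. The NRRA libraries held both the lowest and the highest count, so the groups overlapped. A difference was not detectable at this depth, with a log2 fold change of 0.08 and an unadjusted 95% interval from -0.90 to 1.06 (adjusted p = 0.903, edgeR), an interval that spans about 2-fold in either direction. Dll1 (ENSMUSG00000014773) lies at chr17:15367354-15376872 on the minus strand, and 20.6% of its exonic bases overlap A930024N18Rik on the opposite strand.

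Of the 3 HES and HEY targets, only Hes1 passed the test, and 0 were called with a 2-fold change, against 13.3% of all genes. Hes1, a repressor that is among the most general readouts of Notch, was at 89.7 and 82.9 CPM in Veh and at 77.4 and 78.7 CPM in NRRA. Both NRRA libraries were below both Veh libraries, and the gap between the groups was smaller than that between the Veh libraries. The log2 fold change was -0.14 (SE 0.044, adjusted p = 0.007 in the edgeR test), or 1.10 times as high in Veh. The call was lost when libraries were scaled by their totals alone (log2 fold change -0.05, adjusted p = 0.311, edgeR), with DESeq2 (adjusted p = 0.0822), without Veh replicate 1 (0.137) and without NRRA replicate 1 (0.0592). Its adjusted p over all alternatives lay between 0.00022 and 0.311. Hes1 (ENSMUSG00000022528) lies at chr16:30064384-30067796 on the plus strand.

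Hey1 was at 5.35 and 6.35 CPM in Veh and at 4.61 and 5.05 CPM in NRRA, from 145 to 189 counts per library. The NRRA libraries were the lower ones, with a gap smaller than that between the Veh libraries, and the log2 fold change of -0.28 (unadjusted 95% interval -0.59 to 0.03) did not pass the test (adjusted p = 0.115, edgeR). Heyl was at 5.12 and 4.91 CPM in Veh and at 4.64 and 4.38 CPM in NRRA. These groups did not overlap either, and the log2 fold change of -0.15 (unadjusted 95% interval -0.47 to 0.16) did not pass the test (adjusted p = 0.423, edgeR). The intervals of both genes include no change as well as decreases larger than that of Hes1. Hey1 (ENSMUSG00000040289, chr3:8663359-8667256, minus strand) and Heyl (ENSMUSG00000032744, chr4:123233556-123249875, plus strand) share no exonic bases with another gene, nor does Hes1.

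**Figure D2:**
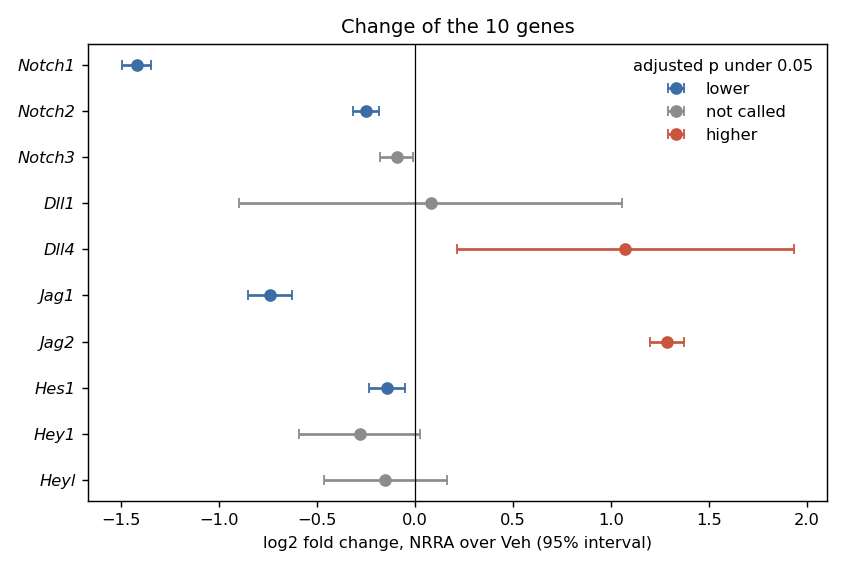
Log2 fold change of each gene, NRRA over Veh, with its unadjusted 95% interval from the edgeR fit, coloured by call (adjusted p under 0.05). Notch1 (-1.42) and Jag2 (1.29) have narrow intervals far from 0, and those of Dll1 and Dll4 are wide.

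Levels of different genes were compared per kilobase of the union of annotated exons (RPKM). In Veh, mean RPKM ran in the order Hes1 (42.4), Notch2 (17.7), Notch1 (13.4), Notch3 (12.3), Jag1 (10.3), Jag2 (7.06), Hey1 (1.79), Heyl (0.981), Dll1 (0.132) and Dll4 (0.125). In NRRA, mean RPKM ran in the order Hes1 (38.3), Jag2 (17.2), Notch2 (14.9), Notch3 (11.5), Jag1 (6.16), Notch1 (4.98), Hey1 (1.48), Heyl (0.882), Dll4 (0.262) and Dll1 (0.142). Neighbours in these orders were separated in both libraries of the group, except Dll1 and Dll4 in Veh. Thus Jag2 moved from place 6 to place 2, and Notch1 from place 3 to place 6. The order depends on the length used: per kilobase of the longest annotated transcript, a choice made after seeing the data, Notch1 (20.03 RPKM) stood above Notch2 (18.2 RPKM) in Veh and above Jag1 in NRRA, since the exon union of Notch1 spans 14232 bases and its longest transcript 9488 bases. With that length Dll4 and Dll1 overlapped in NRRA.

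The make-up of the receptors and ligands was set out on the same RPKM scale, with Notch4 and Dll3 added. Notch1 made up 30.7% and 30.2% of the summed RPKM of Notch1 to Notch4 in Veh, against 15.9% and 15.3% in NRRA. The sum itself went from a mean of 43.9 RPKM in Veh to 31.9 RPKM in NRRA. The share of Notch2 was 39.4% and 41.4% in Veh and 47.3% and 46.2% in NRRA, and that of Notch3 was 28.7% and 27.2% in Veh and 35.2% and 36.9% in NRRA. Notch4 contributed under 2% in every library. With the longest transcript as length, Notch1 made up 39.3% and 38.8% in Veh, against 21.8% and 21.0% in NRRA. Notch2 was then below Notch1 in Veh, at 34.6% and 36.4%, and above it in NRRA, at 44.2% and 43.3%. Jag1 was the most abundant ligand in Veh and Jag2 in NRRA.

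The ratio of Jag2 to Jag1 RPKM was 0.678 and 0.692 in Veh, against 2.87 and 2.73 in NRRA. The ratio was thus below 1 in both Veh libraries and above 1 in both NRRA libraries, also with the longest transcript as length (0.891 and 0.91 against 3.77 and 3.58). An exact two-sided permutation test of this ratio gave p = 0.333, the smallest value that 2 against 2 libraries allow. Jag1 and Jag2 together made up over 95% of the summed ligand RPKM in each library. The sum of Dll1, Dll3, Dll4, Jag1 and Jag2 was 17.9 RPKM ± 0.207 in Veh and 24.1 RPKM ± 0.762 in NRRA (SD, n = 2).

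**Figure D3:**
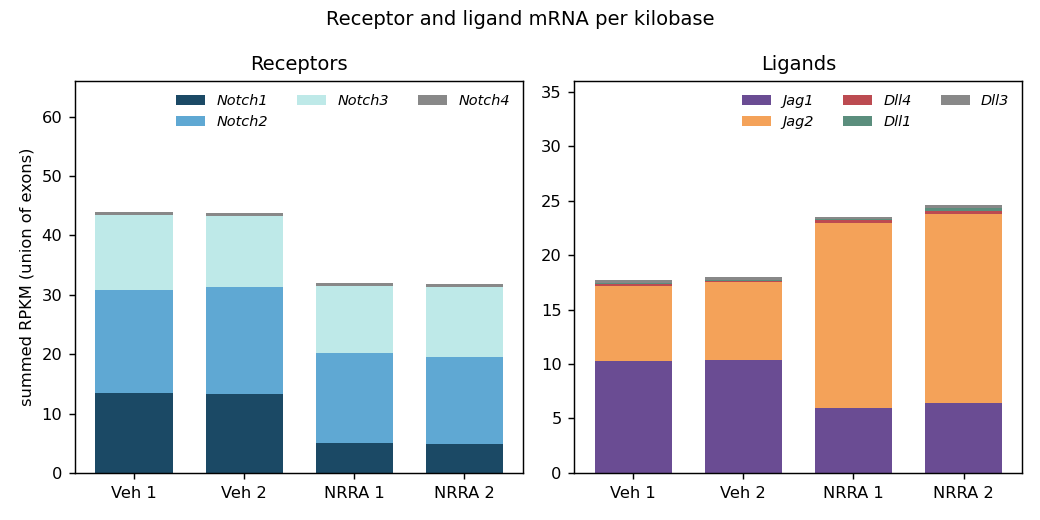
Summed RPKM (per kilobase of exon union) of the receptors (left) and ligands (right) in each library, stacked by gene. The Notch1 part is smaller in both NRRA libraries and the Jag2 part larger.

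RNA of other cell types was present in these bulk libraries, and fewer cells of a type and less RNA per cell cannot be told apart. Of 20 fibroblast feeder genes, 18 were lower in NRRA, against 28.4% of all genes tested, and 1, Col3a1, was higher, against 27.9%. Their median log2 fold change was -0.40. Summed over the list, Veh held 10671 and 10527 CPM and NRRA 8111 and 7906 CPM, most of it from Fn1. Of the 12 germ cell genes, 5 were higher and 6 lower, beside 27.9% and 28.4% of all genes tested. Their summed levels lay between 2770 and 2943 CPM in all libraries. Within that list Zbtb16 (log2 fold change -2.43) and Gfra1 (-1.38), markers of undifferentiated spermatogonia, were lower, and Kit (5.59), a marker of differentiating spermatogonia, was higher. Notch1, Notch2 and Jag1 thus moved in the same direction as most feeder genes and as Zbtb16 and Gfra1, and the part of the feeder cells or of the germ cell stages in these differences was not tested.

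For cell types of the testis and vessels in which Notch is best known, several defining markers were at or near 0. Of the 10 Sertoli markers, Fshr and Cst12 had a count of 0 in every library and Amh and Rhox5 had at most 3 counts. Among the other Sertoli markers, Sox9 was lower in NRRA (log2 fold change -1.59, from 28.2 to 9.38 mean CPM) and Inha was higher (0.53, adjusted p = 0.0178 in the edgeR test), while Wt1 did not pass the test (-0.28, adjusted p = 0.0826, edgeR). The list, whose decrease came mostly from Sox9, summed to 38.0 and 42.4 CPM in Veh against 21.2 and 21.5 CPM in NRRA. Of 8 endothelial markers, Sox17 was at 0 and Tie1 had at most 4 counts. Of this list 3 were lower and none higher, where 28.4% of all genes tested were lower and 27.9% higher. The list summed to 20.1 and 19.9 CPM in Veh against 8.23 and 8.37 CPM in NRRA. Dll4, a ligand of endothelial cells, was called higher from few counts and not in all settings. Of 8 mural markers 4 were lower, against 28.4% of all genes tested, and Kcnj8 had at most 3 counts. The mural sum of 530.8 and 529.02 CPM in Veh and 223.4 and 228.1 CPM in NRRA came mostly from Mcam. Of 6 Leydig markers, Hsd3b1 and Lhcgr had at most 1 count in any library, Star was higher, and the summed level lay between 7.56 and 9.58 CPM in all libraries. The study discarded adherent somatic cells of the testis, Sertoli cells among them, when it set up its cultures. The part of these cell types in the differences of the Notch genes was not tested.

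The wider pathway was described with 62 other genes, of which 60 passed the filter. In NRRA 27 of the 60 were higher, against 27.9% of all genes tested, and 17 of the 60 were lower, against 28.4%. The other 16 did not pass the test. The 44 genes called of 60 stand beside 56.4% of all genes. At least 2-fold changes were called for 11 of them, against 13.3% of all genes, and the median log2 fold change was 0.08. Among the other receptors and ligands, Dlk1, a Delta-like protein that lacks the usual Notch-binding domain, was lower (log2 fold change -1.06, from 39.8 to 19.1 mean CPM), while its relative Dlk2 (1.59) and the Notch ligand Dner (1.23) were higher from levels under 1 CPM. Notch4 and Dll3 did not pass the test.

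Of the 10 cleavage genes and 5 glycosylation genes, 0 were called with a 2-fold change, against 13.3% of all genes. Of the gamma-secretase subunit genes described here, Ncstn (log2 fold change 0.25) was higher, Aph1a (-0.18) and Psenen (-0.20) were lower, and Psen2, Aph1b and Aph1c did not pass the test. The calls of Aph1a and Psenen were lost with DESeq2 (adjusted p = 0.251 and 0.129) and in edgeR without NRRA replicate 1 (adjusted p = 0.272 and 0.17), that of Aph1a also without Veh replicate 2 (0.317). With scaling by library totals alone the calls of Aph1a and Psenen were lost as well (adjusted p = 0.306 and 0.162, edgeR). Without the filter on low counts the call of Aph1a was lost too (adjusted p = 0.0579, edgeR). Stretches near-identical to other genes cover 37.8% of the longest transcript of Aph1a and 43.2% of that of Psenen, and Aph1b and Aph1c share such stretches. The 3 fringe genes encode glycosyltransferases that alter which ligand a Notch receptor responds to. Lfng was lower (-0.75, adjusted p = 9.72e-06), and Rfng (0.40, adjusted p = 2.83e-05) and Mfng (0.57, adjusted p = 0.0257) were higher in the edgeR test. The call of Mfng, at 2.18 CPM in Veh and 3.22 CPM in NRRA, was lost with DESeq2 (adjusted p = 0.204), and in edgeR without Veh replicate 2 (log2 fold change 0.34, adjusted p = 0.263) and without NRRA replicate 1 (0.48, adjusted p = 0.127).

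In the nuclear complex, all 9 genes passed the test, with 4 higher and 5 lower, where 56.4% of all genes tested were called. That share was not matched for expression level, and small changes pass more readily at high counts. Rbpj, the DNA-binding factor on which Notch signaling converges, was higher by a small amount (log2 fold change 0.14, adjusted p = 0.0081 in edgeR and 0.0556 in DESeq2), and without Veh replicate 1 its log2 fold change was 0.07 (adjusted p = 0.227, edgeR). Of the longest Rbpj transcript, 28.6% is near-identical to other genes. The co-activator Maml3 was at 28.3 CPM in Veh and 9.60 CPM in NRRA (log2 fold change -1.56), and the acetyltransferase gene Kat2b was also lower (-1.03), with 53.3% of its longest transcript near-identical to Kat2b-ps. The Deltex genes Dtx4 (1.71) and Dtx1 (1.44), which encode ubiquitin ligases that bind Notch, were higher.

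Other Hes and Hey genes and Nrarp moved in both directions. Hes5 had 82 and 107 counts in Veh and 47 and 56 counts in NRRA (log2 fold change -1.01, adjusted p = 0.00037 in the edgeR test), but 31.8% of its exonic bases overlap a gene on the opposite strand. Hey2 had 36 and 16 counts in Veh and 61 and 74 counts in NRRA (1.23), and its call was lost without Veh replicate 2 (log2 fold change 0.70, adjusted p = 0.0622 in edgeR), while without Veh replicate 1 the log2 fold change was 2.00. Nrarp, a target that feeds back on Notch and that was chosen for mention after its values were seen, was at 42.6 and 38.6 CPM in Veh and 25.2 and 26.0 CPM in NRRA (-0.67), with 79.4% of its exonic bases overlapped by a gene on the opposite strand. Hes6 (log2 fold change 0.50), which encodes a family member that opposes HES1 and is not a usual Notch target, and Hes7 (0.78, adjusted p = 0.0069 in the edgeR test), likewise chosen for mention after their values were seen, were higher. The call of Hes7 was lost with DESeq2 (adjusted p = 0.102) and in edgeR without NRRA replicate 1 (log2 fold change 0.61, adjusted p = 0.0996). Of the 6 other Hes and Hey genes, Hes2 and Hes3 were too low to be tested. Of the rest, 3 were thus higher, against 27.9% of all genes tested, and 1 was lower, against 28.4%.

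Gdnf and Cyp26b1, the genes that Notch targets repress in Sertoli cells, were both higher. The cells from which these transcripts came, and a link to Notch, were not tested. Cyp26b1 was at 14.3 and 15.5 CPM in Veh and at 218.9 and 203.3 CPM in NRRA, a 14.1-fold difference (log2 fold change 3.82, adjusted p = 2.94e-27 in the edgeR test). Cyp26b1 is also known as a gene that RA induces. Gdnf was at 3.04 CPM in Veh and 4.41 CPM in NRRA (log2 fold change 0.53, adjusted p = 0.0147 in edgeR and 0.145 in DESeq2), and its call was lost in edgeR without Veh replicate 1 (0.36, adjusted p = 0.153) and without NRRA replicate 1 (0.44, adjusted p = 0.104).

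**Figure D4:**
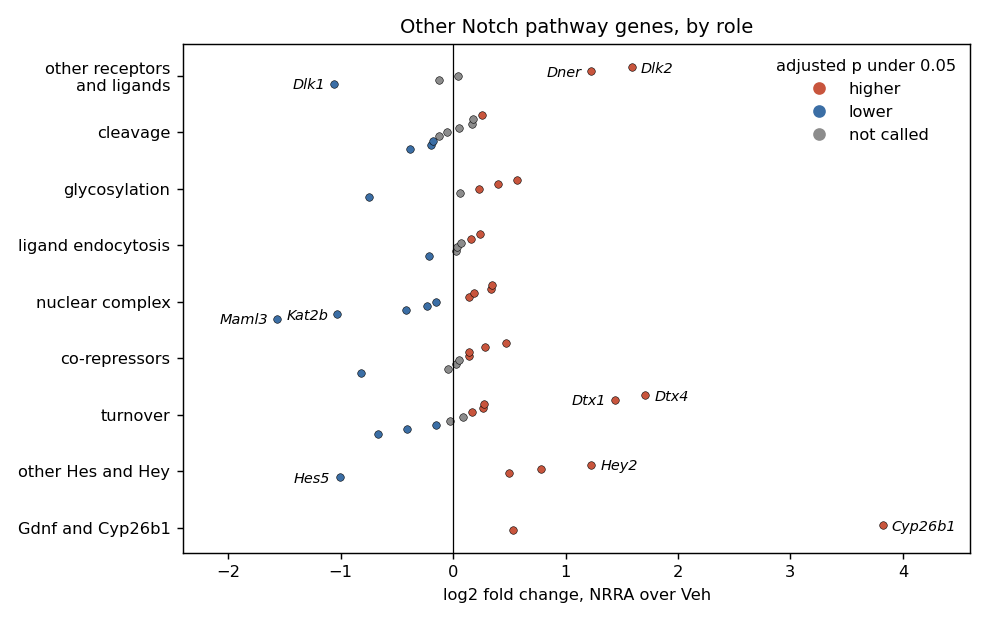
Log2 fold change, NRRA over Veh, of 58 other Notch pathway genes tested, in rows by role and coloured by call (adjusted p under 0.05). Genes called with at least a 2-fold change are named, and most others lie close to 0.

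The calls of Notch1, Notch2, Jag1 and Jag2 held under all 11 alternative settings, which changed the scaling, the test, the filter, the pairing and the libraries used. For Notch1 the log2 fold change lay between -1.45 and -1.33, for Jag1 between -0.79 and -0.65, and for Jag2 between 1.27 and 1.38 in those settings. Hes1 and Dll4 lost their calls in some settings, as given above.

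**Figure D5:**
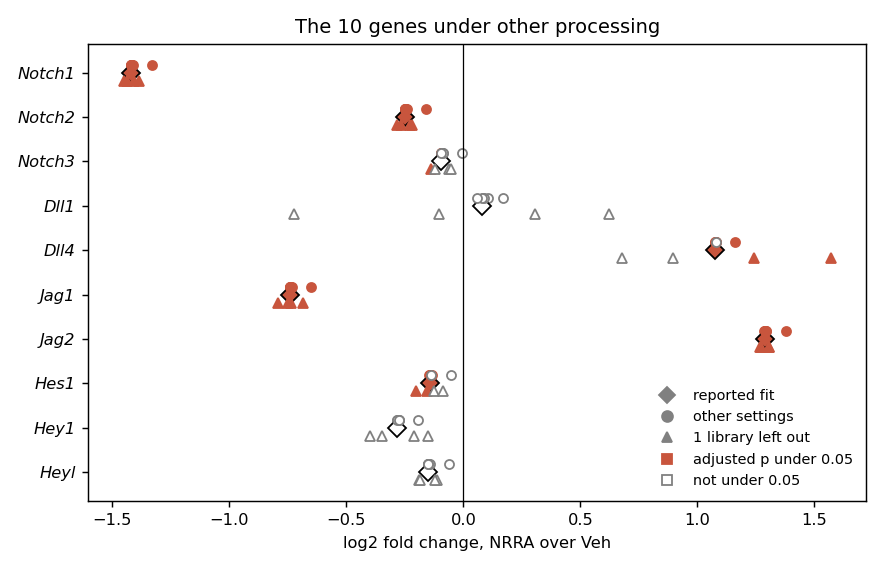
Log2 fold change of each gene in the reported fit (diamonds), under other settings (circles) and with 1 library left out (triangles). Filled symbols have an adjusted p under 0.05. The symbols of Dll1 lie on both sides of 0, and those of Jag1, Jag2, Notch1 and Notch2 are all filled.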

How the data were processed

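The deposited values are raw counts of reads per gene in 4 libraries, which the authors left as whole numbers without normalization. Per the submitters' processing notes, the tools included bcl2fastq, STAR 2.6.1c and featureCounts 1.6.4, and the build was mm10. The annotation release and the strand setting are not given in the sources used here. The study's methods describe a stranded oligo-dT mRNA preparation with a Tecan kit, while the labels name TruSeq and NuGEN. Columns were matched to samples by their descriptions, since the Veh columns carry other numbers than the titles. No entry lacked a gene.

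Counts were tested in edgeR 4.0.16 (R 4.3.3) after filterByExpr and TMM scaling, with a quasi-likelihood test (robust) of NRRA against Veh on all 20232 genes that passed and Benjamini-Hochberg adjustment (threshold 0.05). The study used DESeq2 for its data, and DESeq2 1.42.0 was run here as an alternative because with 2 libraries a group the edgeR test allows for the error of the estimated dispersions. SE and 95% intervals come from the F statistic. CPM uses TMM-scaled library sizes, and log2 CPM a prior count of 2. The floor was 3 counts and covers counting error only. Exon unions, overlaps and near-identical stretches (BLAST, at least 95% over 100 bases) were taken from GENCODE M21 (GRCm38), in which 99.7% of identifiers were found. The test script was checked on simulated data.

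The 10 genes and the other lists were chosen with earlier results of these data known. Named in the text are the 10 genes, other pathway genes called with at least a 2-fold change, Rbpj, fringe and gamma-secretase genes, the markers, Stra8, and the 3 genes most like the gene of the largest change. Of the other pathway genes, 2 are counted but not reported here.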

Additional observations from a re-analysis of the deposited data

How the results depend on the processing

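The counts of calls, the changes of 32 named genes and the changes of the Jag2 to Jag1 and Notch1 to Notch2 ratios were recomputed under 11 alternatives. The marker lists, RPKM sums and most-like genes were not. With 1 library left out, the lone library is assumed to vary like those of the other group. The number of the 10 genes called higher was 2, and it was 1 with DESeq2 and with a filter of at least 1 CPM in 2 libraries, which leaves out Dll1 and Dll4, and ran from 1 to 2 with a library left out. The log2 fold change of Dll1 of 0.08 turned to -0.10 without Veh replicate 1 and to -0.73 without NRRA replicate 2 (range -0.73 to 0.62 with a library left out), and the few counts of this gene limit its precision. Scaling by library totals alone raised log2 fold changes by a median of 0.09 and moved the share of calls that were higher, over all genes, from 49.6% to 60.3%. Of the other pathway genes, 33 were then higher and 13 lower, against 27 and 17 in the reported fit. The deviations of same-numbered libraries had a correlation of -0.011, or 0.029 in the subset averaging 3 or more in log2 CPM. With 2 libraries a group, crossing the numbers only reverses the sign (0.011 and -0.029). The Veh columns also carry other numbers than the titles. These correlations therefore cannot decide whether libraries of the 2 groups were paired. With the replicate block, 2 of the 10 genes were higher and 5 lower, with Notch3 added (adjusted p = 0.042 in edgeR). Over 32 genes named, 319 of 350 recomputed values kept their direction and side of the threshold, 26 lost the call, 3 gained it and 2 turned, and the causes were not tested.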
